A study of Mus musculus with 4 samples.

Results

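The TNF superfamily ligands and receptors were examined for SMAD4 binding in alveolar macrophages (AMs). The members were all protein-coding genes of the curated RefSeq annotation with a symbol that starts with Tnfsf or Tnfrsf, plus Tnf, Lta, Ltb, Ltbr and Fas. The rule takes genes by symbol and uses no peak value. They came to 37 of 20923 protein-coding genes, 15 of them ligands and 22 receptors. SMAD4 carries TGFβ and BMP signals into the nucleus as the common partner of the receptor-regulated SMADs, and the study asked which genomic regions it occupies in AMs, which reside in the airspaces of the lung. Cells came from 9-week-old wild-type C57BL/6J mice, which carried no engineered allele and received no treatment, and were collected by bronchoalveolar lavage and sorted by flow cytometry. Chromatin was immunoprecipitated with a combination of SMAD4 antibodies and tagged with sequencing adapters on the beads (HT-ChIPmentation). The 4 samples were 2 SMAD4 libraries, called replicates 1 and 2 here, and 2 input libraries without antibody, which entered only as the control level behind each peak. The labels do not say whether the replicates came from separate mice, so the spread between them may be technical.

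TNF superfamily ligands are mostly membrane proteins that act on neighbouring cells or are shed, and they bind as trimers. Receptors with a cytoplasmic death domain, such as Fas and TNFR1, can start apoptosis, many others recruit TRAF adaptors and activate NF-κB and MAP kinases, and decoy receptors bind ligand without passing on such a signal. Alveolar macrophages are a classical source of TNF in the inflamed lung, and the family as a whole governs inflammation, lymphocyte costimulation and cell death. A binding site near a gene is not a measure of its expression.

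A shared region was an interval in which peaks of both replicates overlapped by at least 1 bp, and there were 10964. Each was tied to a member when the transcription start site (TSS) of that gene was the nearest one to its summit, or when the summit lay within 50 kb of it. By these criteria 49 shared regions lay near members. The sequences under the summits of 7 of them are shown, because they include the 4 members with the strongest nearest region and all 3 members with a region in the promoter. They are read from RefSeq GRCm38.p6 (mm10) on the plus strand, with coordinates counted from 1. Capitals mark matches, on either strand, to consensus strings that were searched. Windows that touched an exon are cut to 30 bases.
Tnfsf18, intergenic, 12.3 kb upstream, chr1:161482296-161482496: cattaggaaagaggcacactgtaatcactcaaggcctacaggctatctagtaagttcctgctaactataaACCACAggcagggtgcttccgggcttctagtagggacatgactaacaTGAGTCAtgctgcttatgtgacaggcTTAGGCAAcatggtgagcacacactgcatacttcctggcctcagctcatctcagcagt
Tnfrsf1b, 20.8 kb upstream, in the last exon of Tnfrsf8, chr4:145267651-145267680: TTGGGCAAtatcttccaaaagTGTGGTatc
Tnfrsf26, intergenic, 3.97 kb upstream, chr7:143631718-143631918: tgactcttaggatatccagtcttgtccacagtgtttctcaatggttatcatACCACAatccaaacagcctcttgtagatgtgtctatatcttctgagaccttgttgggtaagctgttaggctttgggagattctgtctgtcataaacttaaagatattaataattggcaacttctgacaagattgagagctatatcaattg
Tnfrsf1a, 7.30 kb upstream, in an intron of Scnn1a, chr6:125342322-125342522: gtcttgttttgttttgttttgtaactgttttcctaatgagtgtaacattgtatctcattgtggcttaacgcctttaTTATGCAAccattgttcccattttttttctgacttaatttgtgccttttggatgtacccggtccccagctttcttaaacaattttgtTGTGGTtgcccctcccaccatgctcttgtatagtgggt
Tnfsf4, promoter, chr1:161395006-161395206: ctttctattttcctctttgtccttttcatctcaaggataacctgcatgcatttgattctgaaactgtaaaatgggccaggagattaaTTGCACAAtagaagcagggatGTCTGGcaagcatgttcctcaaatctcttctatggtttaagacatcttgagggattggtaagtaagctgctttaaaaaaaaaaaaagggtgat
Tnfrsf23, promoter, chr7:143685937-143686137: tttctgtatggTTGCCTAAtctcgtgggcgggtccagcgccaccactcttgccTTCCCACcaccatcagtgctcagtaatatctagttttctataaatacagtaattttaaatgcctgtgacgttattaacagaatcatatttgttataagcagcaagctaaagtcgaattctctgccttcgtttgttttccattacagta
Tnfsf13b, promoter, chr8:10006483-10006512: accttcgataagcttGTCTGGagTGAGTCA
The Tnfsf18 sequence held a CEBP, an AP-1 and a RUNX string. The strings in the Tnfrsf1b stretch were CEBP and RUNX, as they were in the Tnfrsf1a window, while the Tnfrsf26 window had RUNX alone. The promoter sequences of Tnfsf4 and Tnfsf13b each carried the SMAD string GTCTGG, at 11 bp and 8 bp from the summit, joined by a CEBP string in Tnfsf4 and by an AP-1 string in Tnfsf13b. The Tnfrsf23 promoter held CEBP and RBPJ strings and no SMAD string. A match is a description of the letters and not evidence of a bound factor.

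Peak lists of 16369 and 19015 peaks were analysed, with a median of 17 and 14 fragments at the summit and a background control level of 2.08 and 1.22 fragments in replicates 1 and 2. Of 10 AM markers 9 (90.0%) were nearest to at least 1 shared region, all but Fabp4, beside 21.5% of all protein-coding genes. All 10 had one within 50 kb, beside 37.5%. The strongest were at Chil3 (45.8-fold and 65.4-fold), Pparg (33.8-fold and 49.6-fold) and Car4 (30.9-fold and 42.9-fold). Most were far weaker, and over the 32 regions nearest to AM markers the median of the smaller fold was 6.17. Of 10 markers of other lung cells 3 were nearest to a shared region, namely Ccr3, Scgb1a1 and Pecam1. Within 50 kb the count was 5. Neither count fell below the 21.5% and 37.5% over all coding genes. Binding near a marker is not its expression, and the purity of the sort was not tested.

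SMAD4 regions lay within 50 kb of most members. Few were in the promoter of any gene, 14.3% of the 49 regions near members beside 6.42% of all shared regions. In their own promoter 3 members (8.11%) had a region, beside 2.84% of all protein-coding genes. By the nearest TSS, 14 of 37 members (37.8%) were nearest to at least 1 shared region, beside 21.5% of all protein-coding genes. Within 50 kb the count was 28 members (75.7%), beside 37.5% of all protein-coding genes. By list, 18 members (48.6%) were nearest to a peak of replicate 1, beside 27.2%, and 19 (51.4%) to a peak of replicate 2, beside 31.2%. These are shares over a gene list and carry no test. Members are also not independent of each other, since 19 of them lie in 8 loci with more than 1 member, and 11 of the regions were within 50 kb of 2 or 3 members. Counted by locus, 11 of 26 loci were nearest to a region and 17 had one within 50 kb. Loci were not formed for all protein-coding genes, so these counts have no share to stand beside.

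**Figure D1:**
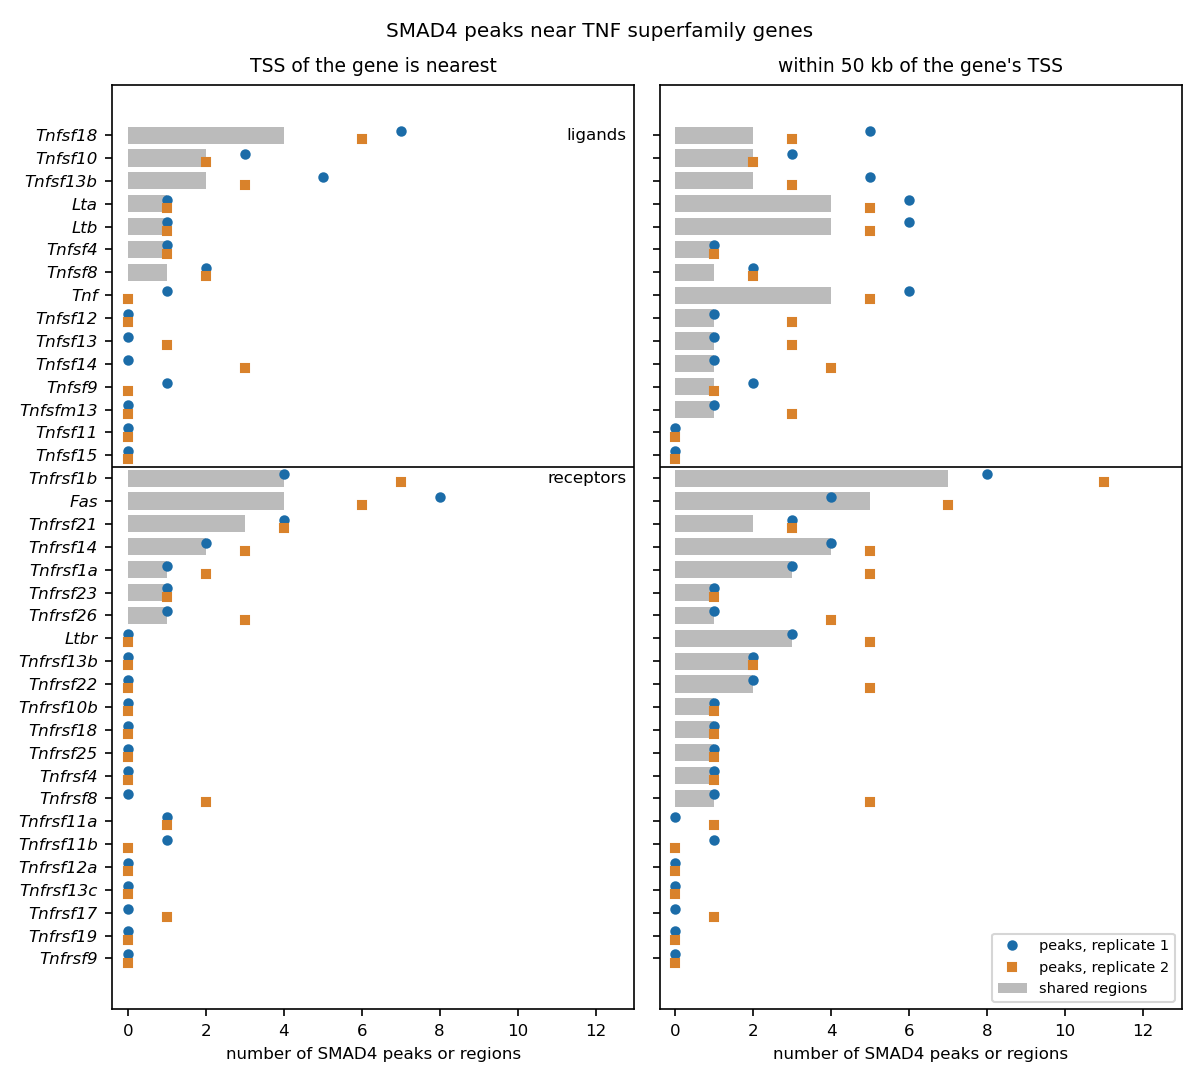
Number of SMAD4 peaks or regions (horizontal axis) for each of the 37 members (vertical axis), ligands above and receptors below, by nearest TSS (left) and within 50 kb (right). Grey bars are shared regions, circles peaks of replicate 1 and squares peaks of replicate 2; Tnfsf18, Tnfrsf1b and Fas reach 4 shared regions at left, and Tnfrsf1b reaches 7 at right.

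The 28 regions whose nearest TSS was a member's fell on 14 members, beside 9044 regions on 4493 of all protein-coding genes. Of the 28, 12 belonged to ligands and 16 to receptors. Tnfsf18, Tnfrsf1b and Fas had 4 each, and 3 members with at least 4 stand beside 2.77% of all protein-coding genes. Tnfrsf21 had 3, Tnfsf10, Tnfsf13b and Tnfrsf14 had 2 each, and 7 members had a single one. By role, 7 of 15 ligands (46.7%) and 7 of 22 receptors (31.8%) were nearest to a region, beside 21.5% of all protein-coding genes. Within 50 kb, 13 ligands (86.7%) and 15 receptors (68.2%) had one, beside 37.5%. Members occupied 2.36 Mb of genome that was closer to their TSS than to any other, with 11.9 nearest regions per Mb, beside 4.59 per Mb for all protein-coding genes. The density was 12.7 per Mb for ligands and 11.3 for receptors. Their genes had a median length of 14.9 kb beside 16.8 kb over all coding genes and a median territory of 36.1 kb beside 42.3 kb.

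Among the ligands, Tnfsf18 was nearest to the strongest region. It encodes GITRL, which costimulates T cells through GITR. Its region at chr1:161481694-161482647, 12.3 kb upstream in intergenic sequence, had a fold enrichment over control of 19.5 in replicate 1 and 21.7 in replicate 2. The summit stood on 59 fragments in replicate 1 (95% exact Poisson interval 44.9 to 76.1) and on 47 in replicate 2 (34.5 to 62.5). Counting error is all that these Poisson and the binomial intervals cover. A further region 56.2 kb downstream was nearly as strong, at 15.9-fold and 23.5-fold, so that Tnfsf18 held 2 of the 4 strongest of the 49 regions. The remaining ones were weaker, at 5.32-fold and 11.3-fold 59.4 kb downstream and at 6.17-fold and 6.32-fold in an intron 2.86 kb downstream. In addition 3 peaks of replicate 1 and 1 of replicate 2 near Tnfsf18 were without a partner, the last at 147 kb from the TSS. Tnfsf4, the neighbouring gene, encodes OX40L, another T cell costimulator. It had a single region, in its promoter 332 bp upstream of the TSS (chr1:161394826-161395235), of 6.17-fold with 18 fragments in replicate 1 and 8.12-fold with 17 fragments in replicate 2.

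Tnfsf13b encodes BAFF, the survival factor of B cells, and was bound at its TSS. The summit of the region at chr8:10006373-10006939 lay 26 bp downstream of the TSS, with a fold of 6.82 in replicate 1 and 9.02 in replicate 2 and 20 and 19 fragments. A weaker intronic region lay 19.7 kb downstream, at 4.59-fold and 5.44-fold. Another 4 peaks in its introns were seen in a single list, 3 of them in replicate 1. Tnfsf10 encodes TRAIL, a ligand that induces apoptosis through death receptors. Its stronger region lay 46.5 kb upstream (chr3:27270164-27270769), at 7.47-fold and 9.63-fold with 22 fragments in either replicate, and the other 14.5 kb upstream at 3.57-fold and 8.12-fold. The 3.57-fold value, on 10 fragments, was the lowest of replicate 1 among the 49 regions, and that region was lost at a q-value limit of 0.001. Tnfsf8, the gene of CD30L, had its region 45.3 kb downstream of the TSS (chr4:63815693-63816166), beyond the end of the gene, at 7.47-fold with 22 fragments and 5.86-fold with 13. It was among 4 regions with the higher fold in replicate 1.

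The genes of TNF and the lymphotoxins lie side by side on chromosome 17 and shared their regions. Tnf, the founding member of the family and a main inflammatory product of macrophages, was nearest to no shared region. Its territory was 4.79 kb, beside a median of 42.3 kb over all coding genes. A single peak had the Tnf TSS as nearest, in a Tnf exon 1.45 kb downstream, in replicate 1 alone, at 4.55-fold with 13 fragments (95% exact Poisson interval 6.92 to 22.2). All 4 shared regions within 50 kb of Tnf were also within 50 kb of Lta and Ltb. The closest lay 1.22 kb upstream of Ltb, which encodes the membrane anchor of the lymphotoxin heterotrimer, and 8.72 kb from the Tnf TSS (chr17:35193038-35193403), at 6.17-fold with 18 fragments and 8.12-fold with 17. The region with the Lta TSS as nearest lay 14.3 kb upstream of that TSS (chr17:35219492-35219955), at the end of Nfkbil1, at 5.20-fold with 15 fragments and 8.12-fold with 17. The strongest of the 4 had Atp6v1g2 as nearest gene, in an intron of Nfkbil1 29.2 kb from Tnf (chr17:35230900-35231416), at 9.42-fold and 14.4-fold. The last was in the common promoter of Nfkbil1 and Atp6v1g2, 33.9 kb from Tnf, at 4.22-fold and 9.02-fold. Thus the 4 regions ranged from 4.22-fold to 9.42-fold in replicate 1 and from 8.12-fold to 14.4-fold in replicate 2.

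The other ligands were nearest to no shared region. Tnfsf14, the gene of LIGHT, was nearest to 3 peaks of replicate 2 and none of replicate 1, at 86 bp (promoter, 7.67-fold with 16 fragments), 1.26 kb (6.32-fold) and 4.21 kb (4.20-fold) upstream. The shared region near Tnfsf14 was in the promoter of C3, complement component 3, 34.1 kb from the Tnfsf14 TSS, and had the largest ratio between replicates of the 49 regions, at 4.55-fold and 13.1-fold. Tnfsf9, the gene of the costimulator 4-1BBL, had a shared region of 9.10-fold and 12.2-fold 7.65 kb downstream of its TSS, nearer to Gm11110, and a peak of replicate 1 alone 2.82 kb upstream at 5.20-fold. Tnfsf12 (TWEAK), Tnfsf13 (APRIL) and their read-through gene Tnfsfm13 shared the region in the promoter of the macrophage gene Cd68, 19.3 kb from Tnfsf13 and 29.8 kb from the others, at 10.4-fold with 31 fragments and 12.6-fold with 27. Tnfsfm13 begins at the TSS of Tnfsf12 and could not be told apart from it. Tnfsf13 also had a peak of replicate 2 alone 175 bp from its TSS, of 4.51-fold on 9 fragments. Tnfsf11 (RANKL) and Tnfsf15 (TL1A) had no peak of either list by either criterion, and their closest shared regions lay 77.1 kb and 61.9 kb away.

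**Figure D2:**
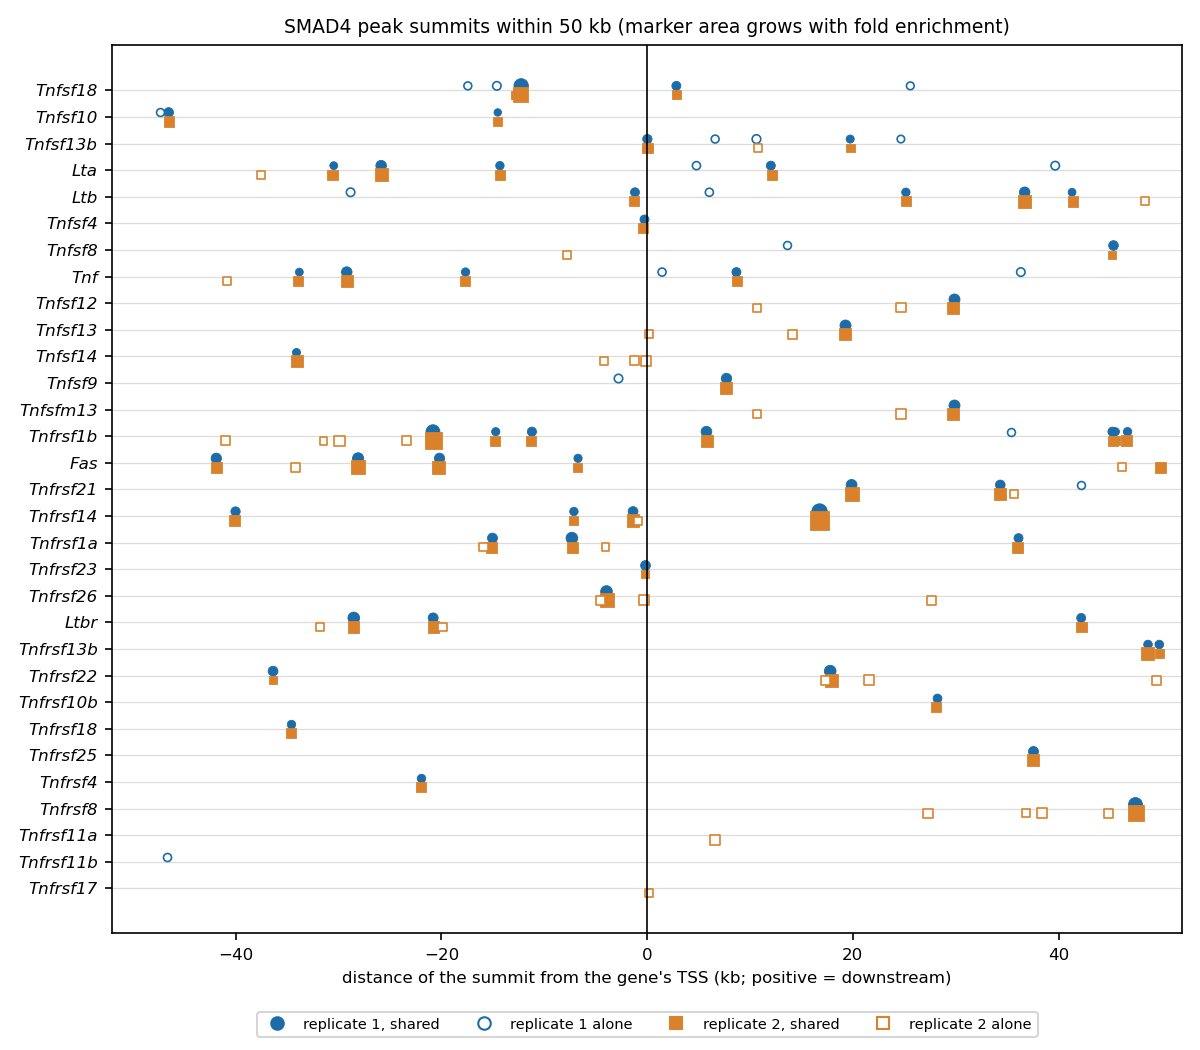
Summits of SMAD4 peaks within 50 kb of the TSS of each member that had any (vertical axis), by distance from the TSS in kb (horizontal axis, positive downstream). Circles are replicate 1 and squares replicate 2, filled where the peak belongs to a shared region and open where it was in 1 list alone. Their area grows with fold enrichment. Tnfsf4, Tnfsf13b and Tnfrsf23 have filled markers at or close to the TSS, and Tnfsf13, Tnfsf14, Tnfrsf17 and Tnfrsf26 have open squares there.

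Both receptors of TNF were near SMAD4 regions. Tnfrsf1b encodes TNFR2, which has no death domain, and had the most regions within 50 kb of all members, 7, of which 4 had its TSS as nearest. Its strongest region (chr4:145267415-145268126) lay 20.8 kb upstream, at 17.9-fold in replicate 1 and 27.1-fold in replicate 2. The summit stood on 54 fragments (95% exact Poisson interval 40.6 to 70.5) and 59 (44.9 to 76.1). This position is in the last exon of Tnfrsf8, the gene of CD30, whose own TSS is 47.5 kb away. The region thus belongs to Tnfrsf1b by nearest TSS and to Tnfrsf8 by gene body. The next was in a Tnfrsf1b intron 5.81 kb downstream, at 9.75-fold and 12.6-fold. Regions 11.3 kb and 14.8 kb upstream were weaker, at 6.50-fold and 8.12-fold and at 4.87-fold and 7.67-fold. The other 3 lay 45.3 to 46.7 kb downstream near Vps13d, at 4.55-fold to 6.50-fold in replicate 1 and 5.87-fold to 10.4-fold in replicate 2. A further 3 peaks in Tnfrsf8 introns, nearest to Tnfrsf1b, were in replicate 2 alone, the strongest of 9.02-fold on 19 fragments 29.9 kb upstream. That peak had the highest fold among the peaks near members that lacked a partner.

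Tnfrsf1a encodes TNFR1, the death domain receptor of TNF, and was nearest to a single shared region. It lay 7.30 kb upstream in an intron of Scnn1a (chr6:125342116-125342570), at 12.0-fold with 36 fragments in replicate 1 (95% exact Poisson interval 25.2 to 49.8) and 10.8-fold with 23 in replicate 2 (14.6 to 34.5). Here too the order of the replicates was reversed relative to most regions. A second region in Scnn1a lay 15.1 kb upstream at 8.12-fold and 10.6-fold, and another near Plekhg6, 36.1 kb downstream, at 6.17-fold and 10.8-fold. Ltbr, the lymphotoxin β receptor gene on the other side of Scnn1a, was nearest to none, but both Scnn1a regions were within 50 kb of it, at 20.8 kb and 28.5 kb. A region in 4930417O13Rik, 42.2 kb from Ltbr, had 6.17-fold and 9.48-fold.

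Among the death receptors, Fas had many regions, all at a distance. Those with its TSS as nearest lay 6.73 kb upstream and 49970 bp, 59.4 kb and 91.9 kb downstream, past the end of the 37.1 kb gene. The strongest of them by the smaller fold was the one 59.4 kb downstream (chr19:34349859-34350247), at 7.15-fold with 21 fragments and 6.77-fold with 14. The one at 91.9 kb was of 6.17-fold and 6.28-fold, but its summits lay 507 bp apart in the replicates. The region 49970 bp downstream, just inside the distance limit, was of 4.91-fold and 9.65-fold, and the one 6.73 kb upstream of 4.87-fold and 6.32-fold. Stronger regions within 50 kb of Fas belonged by nearest TSS to Acta2, the divergent gene of smooth muscle actin, at 20.2 kb (8.77-fold and 16.2-fold), 28.1 kb (10.7-fold and 17.6-fold) and 41.9 kb (8.95-fold and 9.67-fold) upstream of Fas. Tnfrsf21, the gene of death receptor DR6, had its 3 regions in its own introns. They lay 19.9 kb downstream of the TSS (chr17:43036149-43036777, 10.1-fold with 30 fragments and 17.6-fold with 38), 34.3 kb downstream (7.47-fold and 13.1-fold) and 60.6 kb downstream (8.12-fold and 15.3-fold). All 3 had a higher fold in replicate 2. Tnfrsf10b, the TRAIL receptor DR5, and Tnfrsf25, the receptor DR3, were nearest to none, with a region of 5.85-fold and 8.79-fold 28.1 kb away in Rhobtb2 and one of 8.12-fold and 10.8-fold 37.5 kb away near Espn.

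Tnfrsf14 encodes HVEM, the receptor of LIGHT and lymphotoxin α. The region 1.38 kb upstream of its TSS (chr4:154929216-154929708) had 7.80-fold with 23 fragments and 13.1-fold with 28, and the one 7.13 kb upstream 5.20-fold and 7.22-fold. A peak of replicate 2 alone was in its promoter 913 bp upstream, at 5.87-fold. The strongest of all 49 regions lay 16.7 kb downstream of the Tnfrsf14 TSS, past its end, in intergenic sequence nearer to Prxl2b (chr4:154910803-154911653). It had 22.7-fold in replicate 1 with 69 fragments (95% exact Poisson interval 53.7 to 87.3) and 35.2-fold in replicate 2 with 77 (60.8 to 96.2). It is therefore counted for Tnfrsf14 by distance and not by nearest TSS.

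A cluster of mouse decoy and related receptor genes on chromosome 7 held 2 nearest regions. Tnfrsf26 had a region 3.97 kb upstream (chr7:143631508-143632006) of 12.0-fold with 36 fragments (95% exact Poisson interval 25.2 to 49.8) and 16.2-fold with 35 (24.4 to 48.7). Next to it were 2 peaks of replicate 2 alone, 1 of them in the Tnfrsf26 promoter at 8.12-fold on 17 fragments. Tnfrsf23, a decoy receptor for TRAIL, had its region in the promoter, 162 bp upstream (chr7:143685898-143686194), at 7.80-fold with 23 fragments and 5.41-fold with 11. The value of 5.41 was the lowest of replicate 2 among the 49 regions. Tnfrsf22, the decoy receptor gene between them, was nearest to none and had both regions within 50 kb, at 17.8 kb and 36.4 kb. The 3 genes are paralogues, and reads of low mapping quality had been removed, whose part in these counts was not tested.

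The receptors of the B cell ligands, and the costimulatory and other receptors listed here, were nearest to no shared region. This is common, since only 21.5% of coding genes had such a region. Tnfrsf13b (TACI) had 2 regions within 50 kb, 48.7 kb and 49.8 kb away at Usp22, both of 5.52-fold in replicate 1 and of 13.5-fold and 7.22-fold in replicate 2. Tnfrsf17 (BCMA) had a peak of replicate 2 alone in an exon 173 bp from the TSS, at 5.41-fold on 11 fragments, and Tnfrsf13c (BAFF receptor) had none. Tnfrsf4 (OX40) and Tnfrsf18 (GITR) shared a region in an exon of B3galt6, 22.0 kb and 34.6 kb away, at 5.20-fold and 6.32-fold. Tnfrsf8 was nearest to 2 peaks of replicate 2 alone, at 6.77-fold and 4.96-fold. Its last exon held the shared region of 17.9-fold and 27.1-fold that counts for Tnfrsf1b by nearest TSS. Tnfrsf11a (RANK) had a peak of each list that did not overlap, 57.0 kb upstream in replicate 1 at 5.20-fold and 6.56 kb downstream in replicate 2 at 6.32-fold. Tnfrsf11b (osteoprotegerin) had a peak of replicate 1 alone 46.7 kb upstream, at 4.47-fold. Tnfrsf9 (4-1BB), Tnfrsf12a (the TWEAK receptor) and Tnfrsf19 (TROY) had no peak of either list. Altogether 9 members had no shared region and 6 no peak at all by either criterion. For these 9 the closest shared region lay between 61.9 kb (Tnfsf15) and 591 kb (Tnfrsf11b) from the TSS.

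Set by ligand and receptor, the nearest-TSS counts differed from those within 50 kb. A nearest region can lie only in a gene's territory, and territories differed widely. They were 197 kb at Tnfsf18 and 3.92 kb at Tnfrsf18, and 4.79 kb at Tnf, 60.1 kb at Tnfrsf1b and 29.6 kb at Tnfrsf1a. The part of territory in these counts was not tested. Tnfsf18 had 4 nearest regions and its receptor Tnfrsf18 had 0, but 2 and 1 within 50 kb. For Tnfsf4 and its receptor Tnfrsf4, and likewise for Tnfsf8 and Tnfrsf8, the counts were 1 and 0 by nearest TSS and 1 and 1 within 50 kb. BAFF (Tnfsf13b) had 2 by either criterion, and of its receptors Tnfrsf13b had 0 nearest and 2 within 50 kb, while Tnfrsf13c and Tnfrsf17 had 0 by both. For TNF the nearest-TSS counts were 0 at Tnf, 4 at Tnfrsf1b and 1 at Tnfrsf1a, and within 50 kb they were 4, 7 and 3. TRAIL (Tnfsf10) had 2 nearest regions, its decoy receptors Tnfrsf23 and Tnfrsf22 had 1 and 0, and its receptor Tnfrsf10b had 0. Within 50 kb these counts were 2, 1, 2 and 1. Lta and Ltb had 1 each and Tnfrsf14, which binds lymphotoxin α and LIGHT, had 2, with 0 at Tnfsf14 and Ltbr. Within 50 kb Lta, Ltb and Tnfrsf14 had 4 each, Tnfsf14 had 1 and Ltbr had 3. Fas had 4 and Fasl, its ligand gene, 2 by nearest TSS, and 5 and 0 within 50 kb. Both sides were at 0 by nearest TSS for Tnfsf9 and Tnfrsf9, Tnfsf12 and Tnfrsf12a, Tnfsf15 and Tnfrsf25, and Tnfsf11 and Tnfrsf11a. Within 50 kb Tnfsf9, Tnfsf12 and Tnfrsf25 had 1 each, and the other genes of these pairs had 0. Of all protein-coding genes 21.5% were nearest to a shared region and 37.5% had one within 50 kb, so that a count of 0 is common. The difference between ligands and receptors was not tested.

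By distance, 15 of the 28 nearest regions were upstream and 13 downstream of the TSS, and 11 lay within 10 kb. Their median distance was 14425 bp, beside 18040 bp for all shared regions. Only 5 lay beyond 50 kb, at Tnfsf18, Fas and Tnfrsf21. Just outside the limit, and so not counted, were a region 53.5 kb from Tnfrsf8 (4.87-fold and 7.67-fold) and one 54.1 kb from Tnfrsf23 (12.0-fold and 16.2-fold), which count for Tnfrsf1b and Tnfrsf26. Promoter regions were found at 3 members (8.11%), beside 2.84% of all protein-coding genes. Of all 49 regions near members, 26 were intergenic (53.1%, 95% exact binomial interval 38.3 to 67.5), beside 40.5% of all shared regions. Introns held 13 (26.5%, 14.9 to 41.1), beside 49.3%, and promoters of any gene 7 (14.3%, 5.94 to 27.2), beside 6.42%. The interval of the intron share did not hold the share over all regions. Neighbouring regions share a locus, however, and the choice of regions within 50 kb of a TSS bears on their distance to genes.

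**Figure D3:**
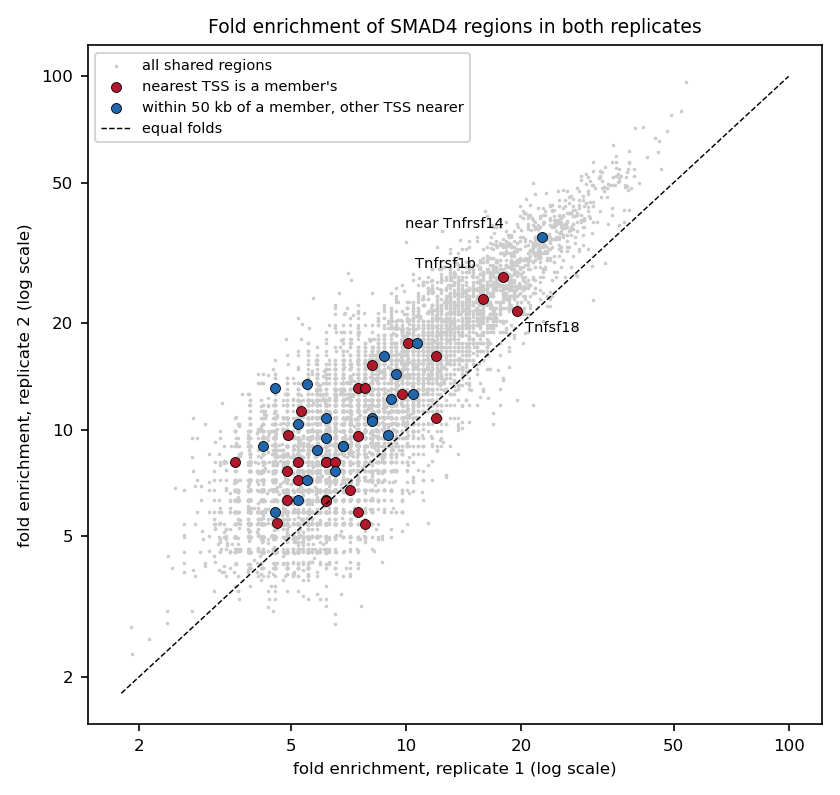
Fold enrichment of shared SMAD4 regions in replicate 1 (horizontal axis, log scale) and replicate 2 (vertical axis, log scale). Grey points are all 10964 regions, red points the 28 nearest to a member and blue points the 21 within 50 kb of a member but nearer to another TSS; most lie above the dashed line of equal folds, and the strongest near Tnfrsf14, Tnfrsf1b and Tnfsf18 lie at the upper right.

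The folds of regions near members lay around those of all shared regions. Their median fold was 6.82 in replicate 1 (range 3.57 to 22.7) and 9.65 in replicate 2 (5.41 to 35.2), beside 6.82 and 9.48 over all shared regions. Their median summits stood on 20 and 22 fragments, beside 20 and 21. Of the 49, 4 were in the top 10% by the smaller of their folds, beside 1136 of all 10964 shared regions. These 4 were described at Tnfrsf14, Tnfrsf1b and Tnfsf18. The fold was higher in replicate 2 in 45 of 49 (91.8%), beside 87.2% of all regions, and replicate 2 had the lower control level. Across the 49 regions the folds of the replicates ranked alike with a Spearman rho of 0.655, beside 0.782 across all regions. Regions share libraries and loci, so this is a description. Of the peaks with a member's TSS as nearest, 29 of 45 in replicate 1 (64.4%, 95% exact binomial interval 48.8 to 78.1) and 30 of 50 in replicate 2 (60.0%, 45.2 to 73.6) belonged to shared regions, beside 69.4% and 59.2% of all peaks. The 16 and 20 peaks without a partner were weak, with a median fold of 4.22 in replicate 1 (3.57 to 5.52) and 5.19 in replicate 2 (3.86 to 9.02).

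The letters under the summits were compared with those of all shared regions in the same windows of 100 bp to each side, for 11 consensus strings. The most frequent near members was the CEBP string TTGCNNAA, in 25 of 49 regions (51.0%, 95% exact binomial interval 36.3 to 65.6), beside 40.9% of all regions. The RUNX string TGTGGT was in 16 (32.7%, 19.9 to 47.5), beside 26.4%. CEBP and RUNX factors are general regulators of myeloid cells. The SMAD string GTCTGG was in 10 regions (20.4%, 10.2 to 34.3), beside 11.2%, and 8 of these 10 were among the 28 nearest regions. The palindrome GTCTAGAC was in none of 49, with an exact upper bound of 7.25%, beside 0.465%. The AP-1 string TGANTCA was in 9 regions (18.4%, 8.76 to 32.0), beside 12.3%. The nuclear receptor string AGGTCA was in 6 (12.2%, 4.63 to 24.8), beside 15.4%, and the RBPJ string GTGGGAA in 4 (8.16%, 2.27 to 19.6), beside 4.14%. Strings for PU.1 (GAGGAAGT), STAT5 (TTCNNNGAA), the E-box (CACGTG) and NF-κB were in 1 region each (2.04%, 0.0517 to 10.9), beside 8.0%, 8.06%, 3.65% and 2.02%. The NF-κB string was in the Tnfrsf1b region 14.8 kb upstream, and the PU.1 string in the intronic Tnfsf13b region. Over the 49 regions, all 11 intervals held the share over all regions. At this number no string could be told apart from the other SMAD4 regions. For the 28 nearest regions alone, of which 8 held the SMAD string, no interval was computed. No strings of different kinds overlapped, and 9 regions held none of them. Among these, of the regions assigned by nearest TSS, were the strongest of Tnfrsf21, Tnfrsf14, Tnfsf10 and Ltb. The 9 included the Fas region at 91.9 kb, whose window lay between its replicate summits and held neither.

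**Figure D4:**
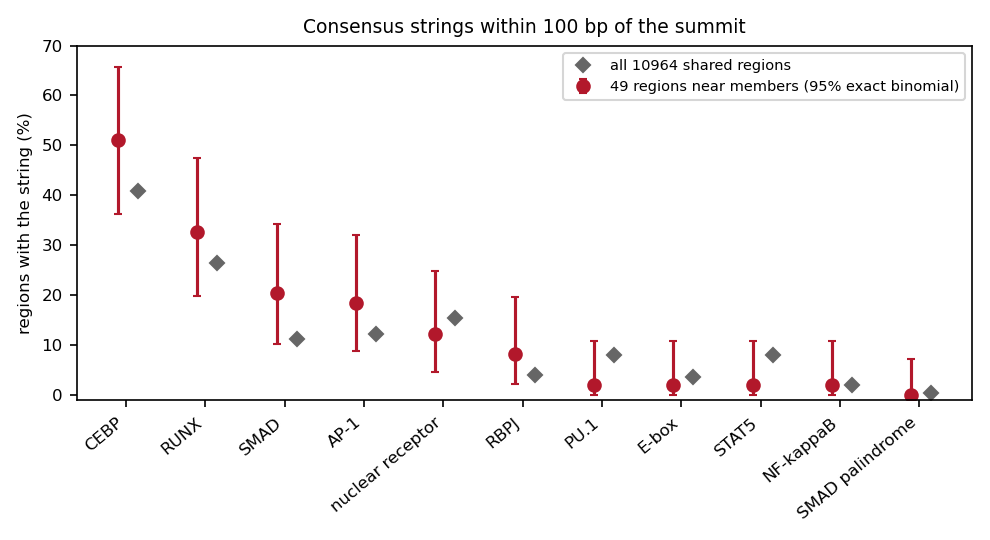
Share of regions (vertical axis, percent) with each of 11 consensus strings (horizontal axis) within 100 bp of the summit. Circles are the 49 regions near members with 95% exact binomial intervals as bars, and diamonds are all 10964 shared regions; each bar spans its diamond, and CEBP is highest in both at 51.0% and 40.9%.

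Downstream of the receptors, 26 adaptors and regulators of TNF receptor signalling were counted in the same way. Of these 9 (34.6%) were nearest to a shared region, beside 21.5% of all protein-coding genes, and 16 (61.5%) had one within 50 kb, beside 37.5%, with 19 nearest regions in all. The strongest belonged to Tnfaip3, the gene of A20, which restrains NF-κB signalling from TNF receptors by editing ubiquitin chains. Its intronic region 2.69 kb downstream of the TSS (chr10:19008908-19009783) had 19.5-fold with 59 fragments and 32.0-fold with 70, and Tnfaip3 was nearest to 4. Adam17, the protease that sheds TNF and its receptors, had an intronic region of 11.4-fold and 17.6-fold, and Map3k14 (NIK), the kinase of non-canonical NF-κB signalling, one of 9.75-fold and 10.4-fold. Of the further superfamily genes whose symbols the rule does not take in, such as Cd40 and Cd27, 2 of 10 were nearest to a shared region and 3 of 10 had one within 50 kb, beside the same 21.5% and 37.5%. The former were Fasl (strongest 6.04-fold and 12.6-fold, 79.9 kb from the TSS) and Relt (5.85-fold and 6.77-fold).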

How the data were processed

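SMAD4 HT-ChIPmentation peaks of AMs from 2 libraries were analysed. The peaks were called against input, but the sources used here do not give which of the 2 input libraries served which SMAD4 library. After adapter removal (Cutadapt) and mapping to mm10 (Bowtie2), the authors discarded duplicates and poorly mapped or unpaired reads (SAMtools), and called peaks per library with MACS3 at a q-value of 0.05. For every peak the authors deposited the fold ratio of summit pileup over control, a −log10 p-value and a −log10 q-value. The deposited score equals 10 times the −log10 q-value, truncated, and was left out. The number of fragments at a summit was solved from fold and p. Read totals were not used here, and depth was judged from these fragments.

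Overlapping peaks of both lists were merged into shared regions, whose summit was the mean of the summits of the strongest peak per replicate, and whose fold per replicate was that of this peak. The nearest TSS was taken among 45657 curated RefSeq transcripts of 26089 genes (GRCm38.p6, chromosomes 1 to 19 and X). Summits were assigned in turn to promoter (from 1 kb before to 100 bp after a TSS), transcription end (from 100 bp before to 1 kb after it), exon, intron or intergenic. Loci joined members whose genes lay within 100 kb. There was 1 condition, so no groups were compared, and no list was tested. All members are accounted for, those nearest to a region by name, the 8 with the strongest region in full, and from other lists only the 3 strongest genes; markers, hosts of regions and single-list peaks were named after their values were seen. The rule for members takes symbols alone, but it and the other lists were set with earlier results of these data known. Code was tested on simulated data and run in Python 3.11.15 with pandas 2.3.3, numpy 2.4.6, scipy 1.17.1 and pysam 0.24.0. Alternatives changed the overlap, the q-value, the fold minimum, the replicate, the gene set, the distance limit and the window.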

Additional observations from a re-analysis of the deposited data

How the results depend on the processing

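Of 156 values computed under other settings, 45 of those that answer a comparison stayed within their limits and 13 moved, and of those on single genes 83 stayed and 15 moved. With 1 list at a time, 45 to 50 peaks had a member's TSS as nearest and 57 to 68 lay within 50 kb. Limits of 10, 25 and 100 kb gave 12, 25 and 68 regions by construction, and 12 members at 10 kb. The share of all coding genes moved with the limit too, to 14.6% at 10 kb and 54.2% at 100 kb, beside 32.4% and 83.8% of members. Requiring 50% reciprocal overlap left 12 members (32.4%) nearest to a region, without Lta and Tnfsf8, beside 18.8% of all protein-coding genes. With windows of 50 bp to each side, the shares were 34.7% for CEBP, beside 28.0% of all regions, and 18.4% for RUNX, beside 15.5%. Those of STAT5 and the E-box were 0, beside 3.75% and 1.73%. With 200 bp the STAT5 share was 14.3%, beside 14.9% of all regions. The NF-κB share was 2.04% beside 2.02% of all regions with 100 bp, 0 beside 0.985% with 50 bp and 6.12% beside 4.35% with 200 bp. Regions with 10 to 20 fragments limit the weak end, where a minimum fold of 5 in both lists left 2 regions of Fas and 1 each of Tnfsf10 and Tnfsf13b. No paired analysis was possible because the labels give no replicate numbers and the result comes from no test.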
